A study of Mus musculus with 12 samples.

Results

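Potassium channel genes were followed across 12 RNA-sequencing libraries of mpkCCDc11 cells, a mouse line from the cortical collecting duct of the kidney. A gene was taken when its symbol starts with Kcn, its biotype is protein coding and it had at least 10 estimated counts in at least 3 of the 12 libraries. This gave 24 of the 94 protein-coding Kcn genes, out of 45777 genes in the table. The genes were thus selected on their count level, and that they are expressed is not a finding.

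All 4 groups were wild-type cells of the same line, between passages 11 and 16, grown on permeable filters for 3 days and then kept for 24 h without serum and hormones. Cells were transfected with control siRNA or with siRNA to TAZ, a transcriptional coactivator of the Hippo pathway that is encoded by Wwtr1. Each siRNA was combined with vehicle or with dDAVP, a vasopressin analogue selective for the V2 receptor, at 1e-09 M on the basolateral side, with 3 libraries per combination. Exposures of 15 min, 30 min and 24 h to dDAVP are named in the labels, without a statement of the one used for sequencing. The sequence of the siRNA is not in the labels, and a knockdown in a cell line says nothing about other cells of the duct. Nothing in the labels ties the 3 libraries of a group to separate cultures, so the p-values speak only to the spread among the libraries at hand, part of which may be technical. The series was designed around the regulation of aquaporin-2, and the channel genes are read here with the same contrasts.

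Potassium channels let potassium ions leave or enter a cell along their electrochemical gradient and so set the membrane voltage. In principal cells of the collecting duct, the basolateral sodium pump brings potassium into the cell. Apical channels secrete it into the tubule, and basolateral channels return it to the blood and keep the cell electrically negative, which drives sodium entry. The genes fall into families by the build of the protein. Voltage-gated alpha subunits carry a voltage sensor and work with accessory subunits, inward rectifiers and two-pore channels have none and conduct at rest, and calcium-activated channels open when calcium in the cell rises.

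Libraries held 45095331 to 61725339 counts. Wwtr1 checked the siRNA labels. Its level was 181 ± 4.4 CPM (counts scaled to the library total, SD, n = 3) with control siRNA and 116 ± 2.5 CPM with TAZ siRNA in vehicle, and 166 ± 6.6 against 114 ± 11 CPM in dDAVP. The fitted ratios were 0.645 and 0.686, so the knockdown was partial. Of 10 principal cell markers, 8 were high enough for the test. In control vehicle Gata3 averaged 201, Hsd11b2 156, Scnn1a 129, Avpr2 29.5 and Scnn1g 8.47 CPM. Aqp2 at 0.34, Aqp3 at 0.513 and Scnn1b at 0.733 CPM were low there. Aqp2 was far higher in dDAVP, at 34.7 ± 8.8 CPM with control siRNA and 11 ± 2.4 CPM with TAZ siRNA. Aqp3 and Scnn1b both averaged 1.02 CPM in control dDAVP, and 0.549 and 0.622 CPM in TAZ siRNA dDAVP. Of 8 intercalated cell markers 3 were tested, Atp6v1b1 at 93.5, Car2 at 58.6 and Aqp6 at 17.4 CPM in control vehicle. The defining genes Slc26a4, Foxi1 and Atp6v1g3 were listed at 0 in all libraries. So were genes such as Slc12a1, Nphs1 and Calb1 of other nephron segments and Col1a2 and Kdr of fibroblasts and endothelium. Other genes of those lists were present in control vehicle, with Lrp2 of the proximal tubule at 183 ± 5.1 CPM, Podxl of podocytes at 93.1 ± 1.8, Col1a1 of fibroblasts at 4.5 ± 0.43 and Cd68 of macrophages at 3.15 ± 0.37 CPM. The summed level of the intercalated list was 162 to 174 CPM in control vehicle, 217 to 229 in control dDAVP, 145 to 162 in TAZ siRNA vehicle and 187 to 204 in TAZ siRNA dDAVP. The list of other nephron segments, 3 of 9 tested, summed to 272 to 284 CPM in control vehicle, 208 to 225 in control dDAVP, 250 to 263 in TAZ siRNA vehicle and 205 to 216 CPM in TAZ siRNA dDAVP, and Lrp2 and Podxl fell with dDAVP in both siRNA arms. The principal cell list summed to 500 to 539 CPM in control vehicle and 531 to 579 in control dDAVP. With TAZ siRNA it summed to 459 to 507 CPM in vehicle and 508 to 536 in dDAVP. Its range thus moved up in dDAVP with both siRNAs, with overlap in control siRNA. Its members did not move together. With dDAVP in control siRNA, 4 of the 8 were higher and 1 lower at an adjusted p under 0.05 in edgeR (62.5%, beside 19.2% of all genes). In TAZ siRNA 3 were higher and 1 lower (50.0%, beside 10.8%). The gene that fell was Scnn1a, from 129 to 90.1 CPM in control siRNA and from 138 to 114 CPM in TAZ siRNA. Within the intercalated list, Car2 rose from 58.6 to 86.9 CPM and Aqp6 from 17.4 to 36.9 CPM with dDAVP in control siRNA. Atp6v1b1 overlapped there, at 93.5 and 98.3 CPM, while in TAZ siRNA all 3 rose. The intercalated sum was higher and the other-segment sum lower in dDAVP with both siRNAs, as several channel genes below were. The part of any of these lists in those results was not tested. The fibroblast, endothelial and immune list, 6 of 9 tested, summed to 8.6 to 11.6 CPM over the 12 libraries. In bulk RNA, fewer cells of a type and less RNA per cell cannot be told apart.

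The first question was which potassium channel genes these cells held. Levels of different genes were compared only as FPKM, which the authors scaled to transcript length and which was summed here over the transcripts of a gene. Kcnk1, a two-pore channel that works as a weak resting conductance, stood far above the rest with a median of 99.71 FPKM over the 12 libraries (82.91 to 119.4). It alone held a median of 74.7% of the FPKM summed over the 24 genes. Kcnk5, a two-pore channel opened by alkaline pH on the outside of the cell, came next with a median of 9.682 FPKM (7.05 to 13.61). Kcnq1, the alpha subunit of a slow voltage-gated current found in heart and in epithelia, had 8.054 FPKM (6.015 to 10.45), a range that overlaps that of Kcnk5.

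Below these, Kcnab2, a cytoplasmic beta subunit of voltage-gated channels, had a median of 4.243 FPKM. Kcnn1, a small-conductance calcium-activated channel best known from neurons, had 3.269 FPKM. Kcnab3 at 1.521, Kcnj16 at 1.366 and Kcnj10 at 1.31 FPKM lay close together, and their ranges over the libraries overlap. Kcnj10 and Kcnj16 encode inward rectifier subunits that assemble into the main basolateral potassium channel of the distal nephron. In all, 9 of the 24 genes had a median of at least 1 FPKM. The other 15 ran from Kcnh2 at 0.3927 down to Kcnj4 at 0.01936 FPKM, and the ranges of neighbours in that order overlap throughout.

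**Figure D1:**
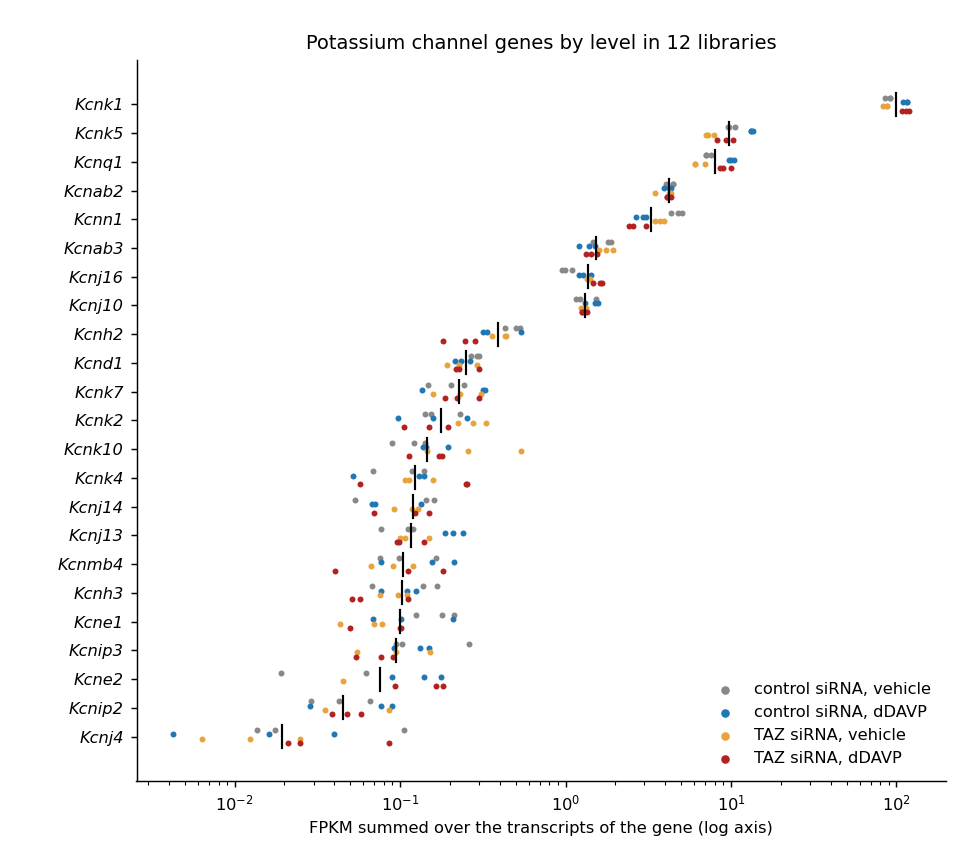
Level of the potassium channel genes, all but 1 of the 24, as FPKM summed over the transcripts of each gene on a log axis. Each point is 1 library coloured by group, the black bar is the median of 12 libraries, and libraries listed at 0 (3 for Kcne2, 1 for Kcnip2) have no point on this axis. Kcnk1 is at the top at a median of 99.71 FPKM and Kcnj4 at the bottom at 0.01936.

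By family, two-pore channels were represented by 6 of 14 protein-coding genes and held 80.1% to 84.8% of the summed FPKM in each library, with Kcnk1 and Kcnk5 at medians of 74.7% and 7.33%. Voltage-gated alpha subunits were represented by 5 of 40 genes with 7.03% to 8.13%, and their accessory subunits by 6 of 13 with 3.63% to 5.48%. Inward rectifiers had 5 of 15 genes with 1.95% to 2.65%, and calcium- or sodium-activated channels 2 of 12 with 1.74% to 4.39%. The summed level of all 24 genes was 119 to 125 FPKM in control vehicle and 148 to 154 in control dDAVP, and 112 to 118 against 139 to 153 FPKM with TAZ siRNA, so in both siRNA arms the dDAVP libraries lay above the vehicle libraries. These sums follow Kcnk1 and describe message, not channels in the membrane.

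The 70 protein-coding Kcn genes outside the rule included the channels best known for potassium secretion in this segment. Kcnj1, the apical secretory inward rectifier of principal cells, had 52 counts over the 12 libraries, at most 8 in any one. Kcnma1, the pore of the large-conductance calcium-activated channel that secretes potassium at high flow, had 9 counts, all in 1 library. Kcne3, an accessory subunit of Kcnq1 in epithelia, had 6 counts in all. In a library with no count, a count of up to 3, or 0.0486 to 0.0665 CPM, cannot be told from 0, counting error only. No count in any library was listed for 40 of the 70 genes.

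Just inside the threshold were Kcnip2, with at least 10 counts in 4 libraries and 0 to 16 counts, Kcnj4 with 5 such libraries and 2 to 20 counts, and Kcne2 with 6 such libraries and 0 to 19 counts. Just outside was Kcnn4, the intermediate-conductance calcium-activated channel, with at least 10 counts in 2 libraries, a highest count of 11 and 55 counts in all. Of these, 8 fell in control vehicle, 29 in control dDAVP, 15 in TAZ siRNA vehicle and 3 in TAZ siRNA dDAVP. Kcnn4 was too low for the test. Kcnrg, Kcnk13, Kcnh6 and Kcnh7 had 1 such library each. Of the 24 genes inside, 17 had at least 10 counts in every library. All 24 also passed the low-count filter of the test across genes.

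Promoter sequence is shown for 4 genes that the results turn on, Kcnk1 and Kcnk5, which rose with dDAVP, Kcnn1, which fell, and Kcne2, whose counts were highest in dDAVP but which entered the list through those libraries. Each stretch is the 250 bases before a RefSeq transcription start in GRCm38.p6, read 5′ to 3′ on the strand of the gene. Capitals mark 2 motifs, the short cAMP response motif TGACG and the motif GGAATG of the TEAD factors through which TAZ acts, each found on either strand, so the first reads CGTCA when it lies on the other strand. For Kcnk1, Kcnk5 and Kcnn1 the start shown is that of the transcript with the most counts. The stretches are Kcnk1 at chr8:125994852-125995101 on the plus strand, Kcnk5 at chr14:20181783-20182032 on the minus strand, Kcne2 at chr16:92292139-92292388 on the plus strand and Kcnn1 at chr8:70857009-70857258 on the minus strand.
Kcnk1: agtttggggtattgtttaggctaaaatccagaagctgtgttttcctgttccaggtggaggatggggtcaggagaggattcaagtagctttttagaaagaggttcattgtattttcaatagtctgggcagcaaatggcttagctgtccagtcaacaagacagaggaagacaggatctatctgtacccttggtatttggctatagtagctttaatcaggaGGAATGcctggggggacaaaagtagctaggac
Kcnk5: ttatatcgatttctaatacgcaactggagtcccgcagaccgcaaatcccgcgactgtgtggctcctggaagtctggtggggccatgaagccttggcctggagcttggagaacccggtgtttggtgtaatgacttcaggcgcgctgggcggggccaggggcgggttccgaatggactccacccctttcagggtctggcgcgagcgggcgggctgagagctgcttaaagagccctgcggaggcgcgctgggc
Kcne2: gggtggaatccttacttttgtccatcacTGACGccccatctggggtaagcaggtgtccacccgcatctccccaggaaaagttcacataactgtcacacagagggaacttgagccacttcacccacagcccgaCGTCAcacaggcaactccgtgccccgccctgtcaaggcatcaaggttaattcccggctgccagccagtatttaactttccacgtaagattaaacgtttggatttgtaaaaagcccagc
Kcnn1: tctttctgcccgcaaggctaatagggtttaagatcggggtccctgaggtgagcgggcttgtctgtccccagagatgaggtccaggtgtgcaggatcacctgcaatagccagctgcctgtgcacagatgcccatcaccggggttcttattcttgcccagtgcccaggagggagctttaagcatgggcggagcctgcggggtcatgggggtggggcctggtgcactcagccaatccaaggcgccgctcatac

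In these stretches Kcne2 held TGACG at -222 and, on the other strand, at -118 from the start, and Kcnk1 held the TEAD motif at -32. Neither motif was in the window of Kcnk5 or in that of Kcnn1 shown, and another start of Kcnn1 held TGACG at -130. The window of another start of Kcne2 held neither motif. Windows of 300 bases, with 50 bases after the start, were at hand for 17 of the 24 genes, 30 windows in all. The whole cAMP response element TGACGTCA was in 0 of the 30 and in 1.79% of 32851 promoter windows of the same length. The short motif TGACG, which the whole element contains, was in 5 of the 30 and in 20.8% of all windows. The TEAD motif GGAATG was in 5 of the 30 and in 14.7% of all. A match is a run of letters only, and its absence says nothing about binding elsewhere.

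Next, dDAVP was compared with vehicle in cells with the control siRNA. Here 5 of the 24 genes rose and 1 fell, at an adjusted p under 0.05 in the quasi-likelihood test of edgeR with Benjamini-Hochberg adjustment over 15932 genes. That is 25.0% of the channel genes, beside 19.2% of all genes tested (9.72% higher and 9.48% lower). The genes that rose were Kcnk1, Kcnk5, Kcnq1, Kcnj16 and Kcnj13, and Kcnn1 fell. The median log2 fold change of the 24 genes was -0.03, beside -0.0012 over all genes tested, and 11 of the 24 values were above 0. In TAZ siRNA cells 4 genes rose and 1 fell with dDAVP, or 20.8% beside 10.8% of all genes tested (6.38% higher and 4.41% lower), and the median was 0.06 beside -0.0009. These were Kcnk1, Kcnk5, Kcnq1 and Kcne2 upward and Kcnn1 downward. Kcne2 reached 10 counts in dDAVP libraries only and so had to differ, and without it 4 of 23 genes were called in TAZ siRNA (17.4%) and 6 of 23 in control siRNA (26.1%). The groups did not overlap for 7 of 24 genes in control siRNA, beside 35.3% of all genes, and for 9 of 24 in TAZ siRNA, beside 26.3%. Kcne2 is among these genes with both siRNAs, and the medians above include it too.

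**Figure D2:**
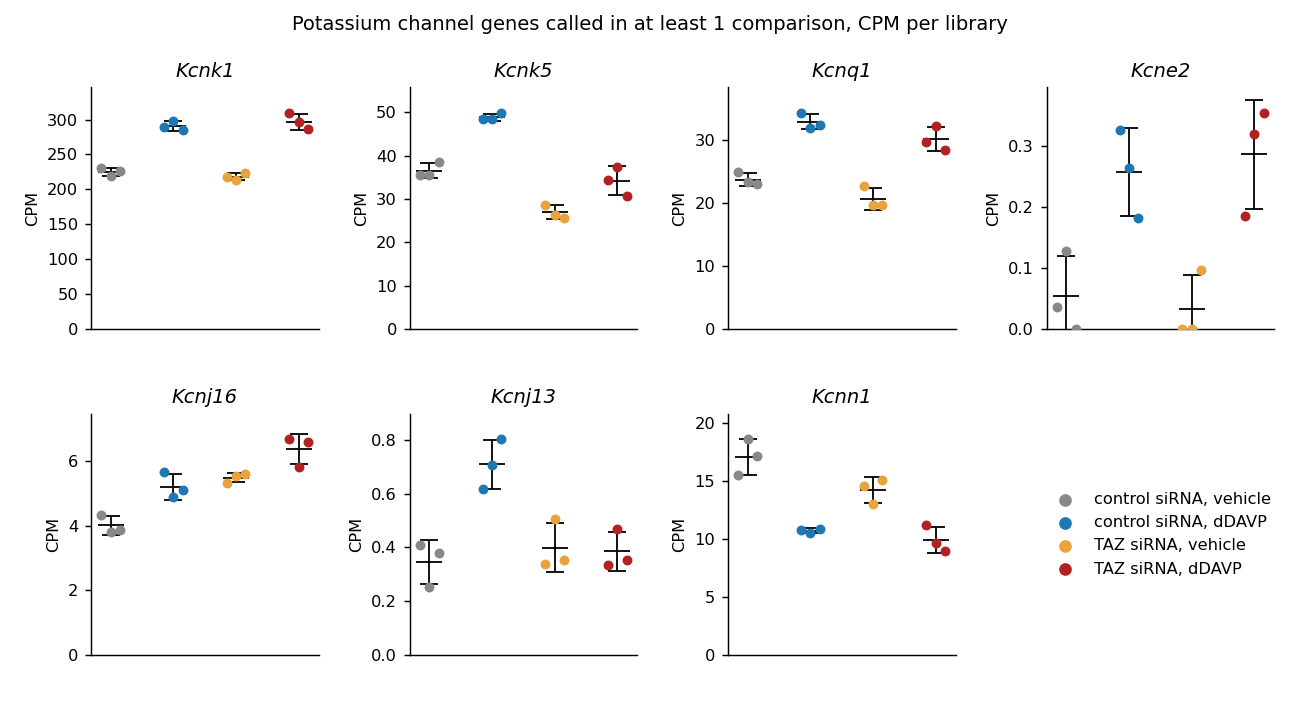
CPM in each library of the 7 potassium channel genes that passed the test in at least 1 comparison. Points are the 3 libraries of each group, the horizontal line is the mean and the bars the SD, cut at 0 for Kcne2. Kcnk1, Kcnk5 and Kcnq1 are higher and Kcnn1 lower in dDAVP than in vehicle with both siRNAs.

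Kcnk1 was at 230, 219 and 227 CPM in the control vehicle libraries and at 289, 298 and 285 CPM in control dDAVP. With TAZ siRNA it was at 218, 213 and 224 CPM in vehicle and at 309, 296 and 286 CPM in dDAVP. Every dDAVP library lay above every vehicle library, and the ranges of the siRNAs overlap within each treatment. The log2 fold change with dDAVP was 0.37 ± 0.03 (SE, adjusted p = 5.16e-07, edgeR) in control siRNA and 0.44 ± 0.03 (adjusted p = 9.14e-08) in TAZ siRNA. Of its counts, 90.7% were assigned to 1 transcript, NM_008430, over chr8:125995102-126030685 of the deposited mm10 coordinates.

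Kcnk5, on chromosome 14 from 20140057 to 20181782, was the 1 channel gene called in all 4 pairwise comparisons. It was at 35.5, 35.5 and 38.6 CPM in control vehicle and at 48.4, 48.5 and 49.8 CPM in control dDAVP. With TAZ siRNA it was at 28.7, 26.4 and 25.6 CPM in vehicle and at 34.4, 37.5 and 30.8 CPM in dDAVP. The highest libraries were control dDAVP and the lowest TAZ siRNA vehicle, while the ranges of control vehicle and TAZ siRNA dDAVP overlap. dDAVP raised it by 0.42 ± 0.06 on the log2 scale (adjusted p = 0.000103, edgeR) in control siRNA and by 0.35 ± 0.06 (adjusted p = 0.00133) in TAZ siRNA. Transcript NM_021542 held 98.7% of its counts.

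Among the voltage-gated alpha subunits Kcnq1 alone was called. It was at 24.9, 23.4 and 23.0 CPM in control vehicle and 34.3, 32.0 and 32.5 CPM in control dDAVP, and at 22.7, 19.7 and 19.7 against 29.8, 32.2 and 28.5 CPM with TAZ siRNA. The dDAVP libraries lay above the vehicle libraries with either siRNA. The log2 fold changes were 0.47 ± 0.06 (adjusted p = 3.11e-05, edgeR) and 0.54 ± 0.06 (adjusted p = 1.22e-05). Kcnq1 spans 143106877 to 143427050 on chromosome 7 and shares 2.96% of its exonic bases in GENCODE with the opposite-strand gene Kcnq1ot1. Kcnq1ot1 did not pass the test, at 0.11 ± 0.08 (adjusted p = 0.359) in control siRNA and -0.01 ± 0.08 (adjusted p = 0.966) in TAZ siRNA.

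The other 4 alpha subunits were not called in any comparison. Kcnh2, the subunit of the rapid delayed rectifier of the heart, averaged 1.92 ± 0.32 CPM (SD, n = 3) in control vehicle, 1.51 ± 0.37 in control dDAVP, 1.51 ± 0.25 in TAZ siRNA vehicle and 1.1 ± 0.21 CPM in TAZ siRNA dDAVP. Its log2 fold change with dDAVP was -0.35 ± 0.20 (adjusted p = 0.281, edgeR) in control siRNA and -0.45 ± 0.22 (adjusted p = 0.214) in TAZ siRNA. Kcnd1, of the A-type family, had 42 to 75 counts a library, and Kcnh3 had 11 to 35.

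Accessory subunits differ in how they act: Kcnab subunits bind the channel inside the cell, Kcnip subunits sense calcium, and Kcne subunits are small membrane proteins that change the gating of alpha subunits such as Kcnq1. Of these 6 genes, edgeR called 0 with dDAVP in control siRNA (2 at an unadjusted p under 0.05), beside 19.2% of all genes, and 1 in TAZ siRNA, Kcne2, beside 10.8%. Kcne2 had 2, 6 and 0 counts in control vehicle and 19, 16 and 10 in control dDAVP. With TAZ siRNA it had 0, 0 and 6 counts in vehicle and 11, 15 and 16 in dDAVP. The 6 dDAVP libraries were the only ones with at least 10 counts, so the gene entered the list through the groups in which it is high.

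The summed counts of Kcne2 gave a ratio of dDAVP to vehicle of 5.18 (exact 95% interval 2.42 to 12.7) in control siRNA and 8.47 (3.58 to 24.4) in TAZ siRNA, counting error only. Because the rule took the gene through its dDAVP libraries, neither these intervals nor the p-values below count as evidence of a response. The fitted log2 fold change was 2.31 ± 0.82 in control siRNA, which missed the threshold at an adjusted p of 0.0595 (edgeR), and 3.03 ± 0.86 in TAZ siRNA (adjusted p = 0.0303). The TAZ siRNA call was lost without any of 4 libraries, TAZ siRNA vehicle 1 (adjusted p = 0.0975) or 2 (0.121) and TAZ siRNA dDAVP 2 (0.0674) or 3 (0.0808). It was also lost without the low-count filter (0.0583) and with the compared groups fitted alone (0.0513), and without TAZ siRNA vehicle 3, the 1 vehicle library with counts, the value was 6.97. In control siRNA the gene passed in limma-voom (0.0216), with the groups alone (0.0333) and without control vehicle 2 (0.0299). The difference between the siRNAs in this response did not pass the test.

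Kcnab2 was at 13.4 to 17.6 CPM over the 12 libraries with no call, at -0.05 ± 0.08 on the log2 scale with dDAVP in control siRNA and 0.08 ± 0.08 in TAZ siRNA. Kcnab3 averaged 4.7 ± 0.63 and 3.77 ± 0.43 CPM (SD, n = 3) in control vehicle and dDAVP, and 4.83 ± 0.45 and 3.97 ± 0.26 CPM with TAZ siRNA. Its log2 fold changes were -0.32 ± 0.12 (adjusted p = 0.0892, edgeR) and -0.29 ± 0.12 (adjusted p = 0.163), and the first passed, at -0.43 (adjusted p = 0.0273), when control vehicle 3 was left out. Kcnip3, which also acts as a calcium-dependent transcription factor, had 23 to 66 counts a library, Kcne1 8 to 44 and Kcnip2 0 to 16, and none of these was called with dDAVP.

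Of the 5 inward rectifiers, 2 rose and 0 fell with dDAVP in control siRNA, beside 19.2% of all genes called in either direction and 9.72% called higher. In TAZ siRNA edgeR called 0 (1 at an unadjusted p under 0.05), beside 10.8% in either direction. Kcnj16 was at 4.34, 3.8 and 3.88 CPM in control vehicle and 5.65, 4.87 and 5.1 in control dDAVP, and at 5.33, 5.52 and 5.6 against 6.66, 5.82 and 6.59 CPM with TAZ siRNA. The groups did not overlap with either siRNA. The log2 fold change was 0.38 ± 0.10 (adjusted p = 0.0122, edgeR) in control siRNA and 0.22 ± 0.10 (adjusted p = 0.172) in TAZ siRNA. The control call was lost without control vehicle 2 (adjusted p = 0.0564) or control dDAVP 1 (0.0548). Kcnj10, its partner subunit, averaged 7.62 ± 1.1 and 8.63 ± 0.79 CPM in control vehicle and dDAVP and 7.52 ± 0.27 and 7.62 ± 0.29 CPM with TAZ siRNA. Its groups overlap, and at 0.19 ± 0.10 (adjusted p = 0.224) and 0.02 ± 0.10 (adjusted p = 0.937) it was not called, though without control vehicle 2 the first was 0.31 (adjusted p = 0.0414).

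Kcnj13, an inward rectifier of epithelia such as the choroid plexus and retinal pigment epithelium, had 23, 12 and 22 counts in control vehicle and 36, 43 and 44 in control dDAVP. With TAZ siRNA it had 21, 31 and 22 counts in vehicle and 20, 22 and 16 in dDAVP. The 3 control dDAVP libraries stood above all others on the CPM scale, at 0.618, 0.707 and 0.801, and the other 9 lay between 0.255 and 0.504. The log2 fold change with dDAVP was 1.01 ± 0.30 (adjusted p = 0.0221, edgeR) in control siRNA and -0.06 ± 0.31 (adjusted p = 0.943) in TAZ siRNA. The call was lost without control vehicle 2 (adjusted p = 0.0931), control dDAVP 2 (0.0601) or control dDAVP 3 (0.0784).

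In GENCODE, 49.1% of the exonic bases of Kcnj13 lie within exons of Gigyf2 on the opposite strand, and use of strand in the counting is not stated in those labels. Without strand, reads of the shared bases cannot be told apart. Gigyf2, a translational repressor looked at after the values of Kcnj13 were seen, rose with dDAVP by 0.31 ± 0.04 on the log2 scale (220 to 274 CPM, adjusted p = 1.92e-05, edgeR) in control siRNA and by 0.25 ± 0.04 (204 to 244 CPM) in TAZ siRNA. Its part in the result for Kcnj13 was not tested. The remaining rectifiers, Kcnj14 with 8 to 27 counts a library and Kcnj4 with 2 to 20, were not called in any comparison.

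Of the calcium-activated family, Kcnn1 was the 1 channel gene that fell with dDAVP. It was at 15.5, 18.6 and 17.2 CPM in control vehicle and at 10.8, 10.5 and 10.9 CPM in control dDAVP, and at 14.6, 13.0 and 15.1 against 11.2, 9.7 and 9.0 CPM with TAZ siRNA. All dDAVP libraries lay below all vehicle libraries. The log2 fold change was -0.67 ± 0.09 (adjusted p = 1.86e-05, edgeR) in control siRNA and -0.51 ± 0.09 (adjusted p = 0.00064) in TAZ siRNA. Its counts were spread over 10 transcripts, with 25.7% on the leading one, NM_001363408. Kcnmb4, a beta subunit of the large-conductance calcium-activated channel, had 5 to 26 counts a library and was not called.

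The remaining two-pore genes were all low and uncalled. Kcnk2, Kcnk10 and Kcnk4 are stretch- and lipid-sensitive channels, with 24 to 84, 37 to 94 and 8 to 28 counts a library. Kcnk7, for which no current is known, had 10 to 27. Kcnk2 averaged 0.726 ± 0.19 CPM (SD, n = 3) in control vehicle, 0.707 ± 0.32 in control dDAVP, 1.13 ± 0.23 in TAZ siRNA vehicle and 0.63 ± 0.20 CPM in TAZ siRNA dDAVP. Its log2 fold change with dDAVP in TAZ siRNA was -0.86 ± 0.32 and missed the threshold (adjusted p = 0.102, edgeR).

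**Figure D3:**
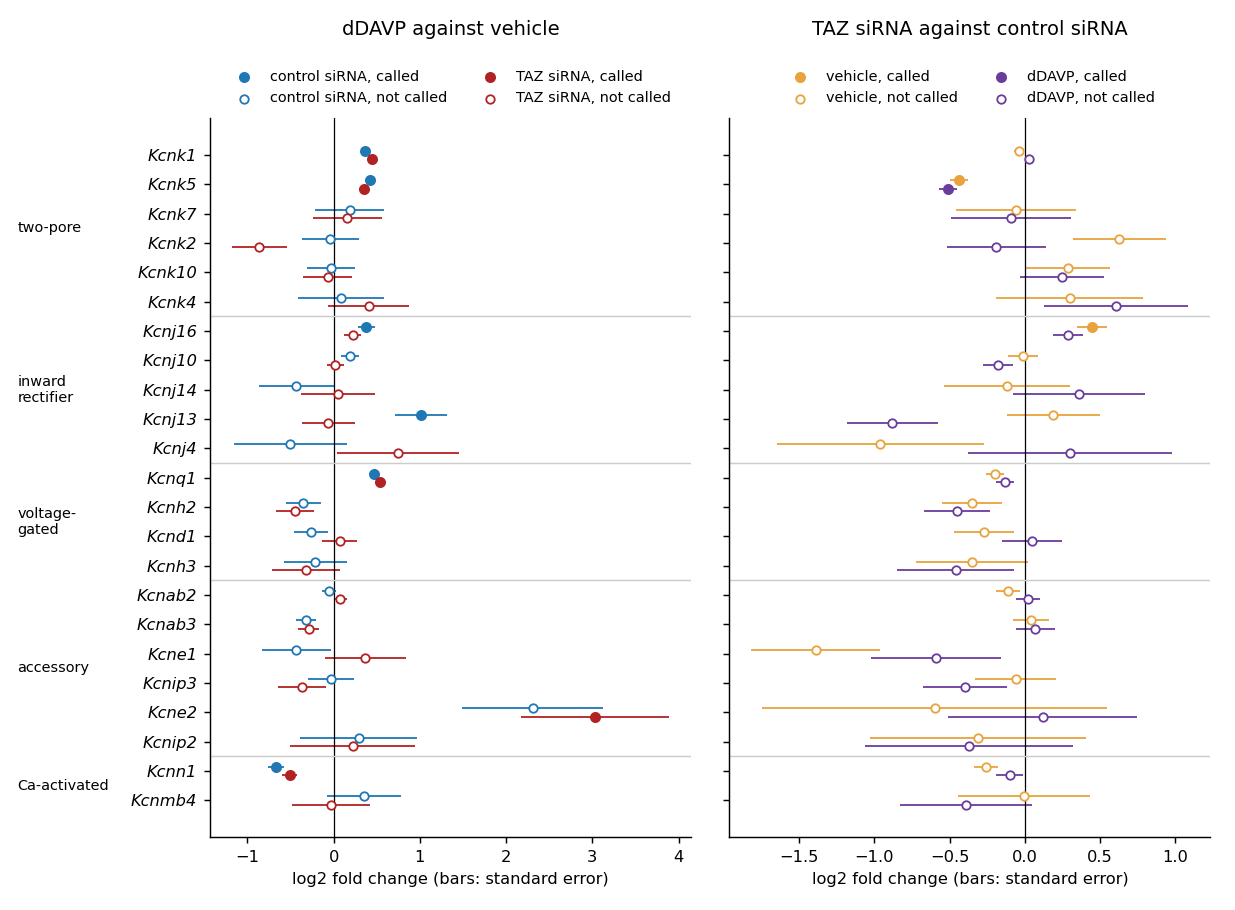
Log2 fold change with its standard error for the potassium channel genes, all but 1 of the 24, ordered by family, for dDAVP against vehicle (left) and TAZ siRNA against control siRNA (right). Filled points were called at an adjusted p under 0.05 and open points were not. The abundant genes have short bars and the scarce ones, such as Kcne2, long bars.

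TAZ siRNA was then compared with control siRNA, with vehicle libraries and with dDAVP libraries apart. In vehicle 1 gene was higher and 1 lower, 8.33% of the 24, beside 6.3% of all genes tested (3.19% higher and 3.11% lower). In dDAVP 0 were higher and 1 lower, 4.17% beside 10.7% of all genes (5.77% higher and 4.97% lower). The median log2 fold change of the 24 genes was -0.09 in vehicle and -0.10 in dDAVP, beside 0.0017 and 0.0025 over all genes tested. The groups did not overlap for 5 and for 4 of the 24 genes, beside 23.3% and 28.8% of all genes.

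Kcnk5 fell with TAZ siRNA by 0.44 ± 0.06 on the log2 scale in vehicle (36.6 to 26.9 CPM, adjusted p = 0.000611, edgeR) and by 0.51 ± 0.06 in dDAVP (48.9 to 34.2 CPM, adjusted p = 5.21e-05). Every TAZ siRNA library was below every control siRNA library of the same treatment. Kcnj16 rose by 0.45 ± 0.10 in vehicle (4.01 to 5.48 CPM, adjusted p = 0.0105), a call lost without control vehicle 3 (adjusted p = 0.0516). In dDAVP its value was 0.29 ± 0.10 (5.2 to 6.36 CPM, adjusted p = 0.0628), which passed at 0.34 (adjusted p = 0.0414) without TAZ siRNA dDAVP 2. Its groups did not overlap in either treatment, with TAZ siRNA above control. Kcnj10, with which it assembles, was at -0.01 ± 0.10 (adjusted p = 0.968) in vehicle and -0.18 ± 0.10 (adjusted p = 0.291) in dDAVP.

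A few genes came near the threshold without passing. Kcne1, the subunit that slows the gating of Kcnq1, was at 0.744, 0.425 and 0.618 CPM in control vehicle and 0.242, 0.277 and 0.161 CPM in TAZ siRNA vehicle. The groups did not overlap, and the log2 fold change of -1.39 ± 0.43 had an adjusted p of 0.0631 (edgeR). In dDAVP it was -0.59 ± 0.43 (adjusted p = 0.442). Kcnq1 was at -0.20 ± 0.06 in vehicle (adjusted p = 0.0725), which passed at -0.28 (adjusted p = 0.00892) without TAZ siRNA vehicle 1, and Kcnn1 at -0.26 ± 0.08 (adjusted p = 0.0709). Kcnj13 in dDAVP was at -0.88 ± 0.30 (adjusted p = 0.0666), and Gigyf2, with which it shares exonic bases, fell there by 0.17 ± 0.04 (adjusted p = 0.0102). Kcnk1 was at -0.04 ± 0.03 (adjusted p = 0.528) in vehicle and 0.03 ± 0.03 (adjusted p = 0.635) in dDAVP.

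Whether the response to dDAVP differed between the siRNAs was tested as a difference of differences. Of the 24 genes 0 passed in edgeR, beside 0.0314% of all genes tested (0.0126% higher and 0.0188% lower). In limma-voom 0 passed, beside 0.0377% of all genes. In DESeq2 0 passed, beside 1.11% of 8680 genes, although DESeq2 gave no adjusted p for 20 of the 24. At an unadjusted p under 0.05 there was 1, Kcnj13, with a difference of -1.07 ± 0.43 on the log2 scale (adjusted p = 0.516, edgeR). The 2 responses to dDAVP share no library, while each shares its libraries with the TAZ siRNA comparisons, so the 4 sets of calls are not independent.

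Standard errors were larger for the scarce genes. For the 9 genes with a median of at least 1 FPKM the standard error of the log2 fold change was 0.03 to 0.12 with dDAVP in control siRNA, and 5 of them were called. For the other 15 it was 0.20 to 0.82, and 1 was called. The change of Kcnk1 with dDAVP, 0.37 in control siRNA, is within the range of those standard errors.

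Other genes that handle potassium were read from 3 lists. Of 13 pumps and cotransporters, 11 could be tested; with dDAVP in control siRNA 4 rose and 1 fell (45.5%, beside 19.2% of all genes), and in TAZ siRNA 2 rose and 1 fell (27.3%, beside 10.8%). Atp1b1, the beta subunit of the sodium pump, rose by 0.79 ± 0.04 on the log2 scale (447 to 772 CPM, adjusted p = 7.92e-10, edgeR) in control siRNA and by 0.67 ± 0.04 (441 to 704 CPM) in TAZ siRNA. In control siRNA alone the test was also passed by Slc12a2, the sodium, potassium and chloride cotransporter, at 0.17 ± 0.05, and by the scarce proton pump gene Atp4a at 2.09 ± 0.58 (0.114 to 0.503 CPM). The difference between the siRNAs had an adjusted p of 0.338 for Slc12a2 and 0.843 for Atp4a.

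Slc12a4, a potassium and chloride cotransporter that lets both ions out of the cell, fell with dDAVP by 0.35 ± 0.05 on the log2 scale in control siRNA (39.5 to 30.9 CPM, adjusted p = 0.000133, edgeR) and by 0.37 ± 0.05 in TAZ siRNA (46.4 to 36 CPM). It was higher with TAZ siRNA by 0.23 ± 0.05 in vehicle and 0.22 ± 0.05 in dDAVP. Slc12a2 was lower with TAZ siRNA in dDAVP, at -0.22 ± 0.05 (adjusted p = 0.0101). No other gene of this list was called with TAZ siRNA.

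Of 17 regulators of potassium secretion 15 could be tested, and 3 rose with dDAVP in control siRNA, while 3 rose and 1 fell in TAZ siRNA. The first share, 3 of 15, is at the background of 19.2% of all genes called in either direction, with 9.72% called higher. The second is 26.7%, beside 10.8% in either direction. Wnk4, a kinase that acts on sodium and potassium transport in the distal nephron, rose by 0.32 ± 0.04 and 0.28 ± 0.04 on the log2 scale. Nedd4l, a ubiquitin ligase of the epithelial sodium channel, rose by 0.39 ± 0.04 and 0.35 ± 0.04. Cab39, a scaffold of the kinases below Wnk4, was called in control siRNA alone at 0.11 ± 0.03, and in TAZ siRNA alone Src was called at 0.17 ± 0.04 and Cav1, a caveolar coat protein, at -0.57 ± 0.13; the difference between the siRNAs had adjusted p-values of 0.811, 0.745 and 0.657 (edgeR). With TAZ siRNA 0 of the 15 were called in either treatment by edgeR, beside 6.3% and 10.7% of all genes, and 4 had an unadjusted p under 0.05 in each. Of 10 partner subunits from outside the Kcn family 4 could be tested, and 1 was called, the anchoring protein Akap9 that binds Kcnq1, at -0.25 ± 0.07 (adjusted p = 0.0313) with TAZ siRNA in dDAVP.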

How the data were processed

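Messenger RNA of 12 libraries was analysed, 3 in each of 4 groups taken from the labels. The authors deposited, per the file headers, estimated counts for genes and transcripts, already in whole numbers, and an FPKM value per transcript. Bowtie 0.12.2 and the builds mm8 and mm10 appear without a role in the submitters' processing notes; the tool that counted reads, and its use of strand, were not given in the sources used here. Per the labels, the protocols name a stranded and another library kit. A further 36 columns with values per sample stayed unused. The design had assumed read counts; the values are estimates, and the test for counts was kept.

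The counts were tested in R 4.3.3 with edgeR 4.0.16 (TMM factors, filterByExpr with a minimum count of 10, robust quasi-likelihood F test, 1 mean per group over all 12 libraries). This left 15932 genes, over which p-values were adjusted by Benjamini-Hochberg, with calls under 0.05. Standard errors are the absolute log2 fold change divided by the root of F. CPM are scaled by TMM. The script was tested on simulated data. Replicate libraries differed beyond sampling noise (chi-square from 4.09 to 12.6 per degree of freedom). Alternatives were RLE factors, DESeq2 1.42.0, limma-voom (limma 3.58.1), 2 other filters, fits of the compared groups alone, the replicate number as a block, and each library left out.

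Promoters are from RefSeq (GRCm38.p6), and overlaps and strands from GENCODE vM21 of the same build. Named with values were every channel gene called in a comparison, 9 collecting duct channels chosen by name, the 8 highest by FPKM and those next to the threshold, except that some genes are not reported here. The low genes described by family, and Gigyf2 and Kcnq1ot1, were added after their values were seen. The genes and lists were chosen with earlier results of these data known.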

Additional observations from a re-analysis of the deposited data

How the results depend on the processing

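Of 14 called log2 fold changes, 10 kept their direction and their call in every alternative run, those of Kcnk1, Kcnk5, Kcnq1 and Kcnn1. In 12 of the 181 alternatives a call of Kcne2, Kcnj13 or Kcnj16 was lost, and 0 reversed. With the replicate number as a block, the channel genes called numbered 6, 5, 2, 1 and 0 for dDAVP in control siRNA, dDAVP in TAZ siRNA, TAZ siRNA in vehicle, TAZ siRNA in dDAVP and the difference of the responses, as without it, and no call of a named gene changed. To look for pairing, the group mean of each gene was subtracted from its log CPM, and the remainders were correlated between libraries of different groups. Same-numbered libraries then correlated at -0.0430 to 0.0799, and differently numbered ones at -0.0578 to 0.0648. Of 12 libraries, 7 correlated best with a library of their own number. These values do not settle whether the numbers pair libraries, and the main test did not pair them. Leaving out 1 library gave 1 to 3 called genes for TAZ siRNA in vehicle (1 without control vehicle 3) and 1 to 2 for TAZ siRNA in dDAVP (2 without TAZ siRNA dDAVP 2). Uncalled values changed sign, with no call, in 24 of 507 alternatives. Kcnj10 with TAZ siRNA in vehicle was 0.01 in limma-voom. Without 1 library, log2 fold changes with dDAVP in TAZ siRNA ran from -0.21 to 0.14 for Kcnj13, -0.02 to 0.14 for Kcnab2 and -0.01 to 0.04 for Kcnj10. With TAZ siRNA in vehicle they ran from -0.01 to 0.32 for Kcnj13, -4.55 to 0.81 for Kcne2, -0.07 to 0.12 for Kcnab3 and -0.09 to 0.11 for Kcnj10. With TAZ siRNA in dDAVP they ran from -0.004 to 0.05 for Kcnk1, -0.07 to 0.37 for Kcne2, -0.03 to 0.05 for Kcnab2 and -0.02 to 0.15 for Kcnab3. The difference of the responses ran from -0.69 to 4.67 for Kcne2 and -0.06 to 0.14 for Kcnab3. The cause of these shifts was not tested. Counts are low for the genes under 1 FPKM, the unstated exposure limits any statement on time, and a message level does not give channel protein or current.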
